A study of Mus musculus with 12 samples.

Results

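Transgenic hearts from the mild and severe lines of MHC-CELF∆ mice were compared with each other, and the same comparison between their wild type littermates was set beside it. It rests on 6 of the 12 arrays of the series, 3 from each line, chosen by their labels, and the other 6 arrays are the wild type littermates, 3 from each family. MHC-CELF∆ mice make a dominant negative CELF protein in the nuclei of heart muscle cells, driven by the α-myosin heavy chain promoter, which is active there after birth. The mild line is MHC-CELF∆-574 and the severe line is MHC-CELF∆-10, each derived from its own transgene insertion and named for the severity of its heart disease. The paper describes more of the dominant negative protein in the severe line than in the mild line. All mice were FVB/N females of 3 weeks that received no treatment, and total RNA of 1 whole heart was hybridized to each array. Since each line is a single insertion, the line, its family, its insertion site and its level of the protein cannot be told apart. In whole hearts, fewer cells of a type and less RNA per cell cannot be told apart either.

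CELF proteins bind RNA in the nucleus and cytoplasm and control alternative splicing and the stability and translation of messages. In heart muscle they take part in the switch of splicing that follows birth, and a dominant negative form blocks that activity in muscle cells. Several genes that respond in these hearts are controlled by serum response factor (SRF), a transcription factor of muscle and growth genes that is held in check by the cofactors HOPX and FHL2.

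The arrays carried the markers of heart muscle. Myh6, the main cardiac myosin heavy chain of the adult mouse, had a mean log2 signal of 13.74 on mild and 13.76 on severe transgenic arrays, and Myl2, the ventricular regulatory light chain, 14.72 and 14.75. One of 4 features of Celf4, a member of the CELF family, marked the transgenic arrays, with log2 signals of 11.42, 11.43 and 11.48 on mild and 11.20, 11.02 and 11.63 on severe transgenic arrays against 6.21 to 6.48 in the 6 littermates. The lines overlapped for this feature, with a line difference of 0.16 (95% interval -0.08 to 0.41, adjusted p = 0.613). The feature measures RNA, and the level of the dominant negative protein was not measured on these arrays. Before normalization the median intensity was 102.8 to 106.2 on the mild line arrays, 116.2 to 118.8 on the severe line arrays and 103.0 to 112.5 on the littermate arrays, so that the severe line arrays were brighter than the rest. No 2 arrays were identical.

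Of 30854 features tested, 654 (2.12%) were called between the transgenic lines at an adjusted p under 0.05, with 332 (1.08%) higher and 322 (1.04%) lower in the mild line. Every difference given below is a line difference, mild minus severe, on the log2 scale unless another is named. On 653 of the 654 features the 3 mild arrays did not overlap the 3 severe arrays, as held for 18.1% of all features. Most differences were small, since 95.8% of all features differed by less than 1.2-fold. A fold change of 2 was reached by 32 of the called features (0.104%), of which 7 (0.0227%) were higher and 25 (0.081%) lower in the mild line. They named 27 genes, 6 higher and 21 lower, and 4 features without a gene symbol. The count at an adjusted p depended on single arrays and on the scaling. It was 319 without severe line replicate 1, and 417, 431 and 342 without mild line replicates 1, 2 and 3. When arrays were scaled to a common median in place of quantile normalization, 907 features were higher and 116 lower, so that the share of higher calls went from 50.8% to 88.7%.

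The same contrast between the littermates called 35 features (0.113%), 25 (0.081%) higher and 10 (0.0324%) lower in the mild line's family, and none reached a fold change of 2 with the test, while 3092 had an unadjusted p under 0.05. That count rested on single arrays, falling to 0 without severe line littermate replicate 3 and to 2 without mild line littermate replicate 3. Among the 654 features called between the transgenic lines, 497 (76.0%) had a littermate difference of the same sign, against 57.9% of all features. Over all features the 2 sets of differences had a Pearson r of 0.292, given as a description across features, which are not independent. The change of each line against its own littermates differed between the lines for 85 features (0.275%), 22 (0.0713%) with a higher and 63 (0.204%) with a lower value for the mild line, and 83 of these 85 were among the 654. With arrays scaled to a common median, 55 features had a higher and 29 a lower value. The share of higher values thus went from 25.9% to 65.5% and depended on the scaling. Of the 32 features past a fold change of 2, 28 passed this test of the difference of the differences. The test uses the same transgenic arrays as the comparison between lines, so the overlap of the 2 sets of calls is not independent evidence.

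**Figure D1:**
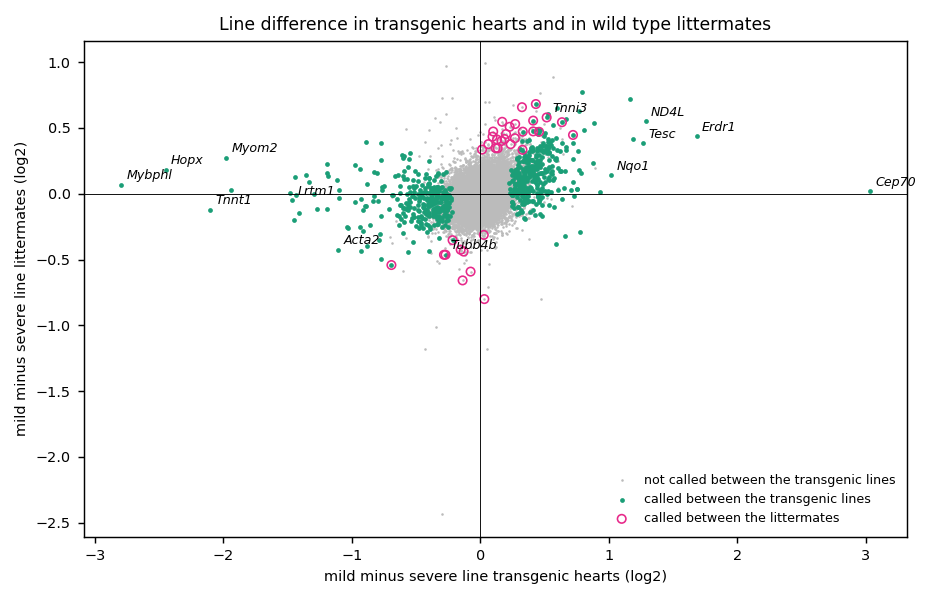
Each point is 1 of 30854 features, placed by the difference between the transgenic lines (x axis, log2) and the difference between their wild type littermates (y axis, log2). The 32 features past a fold change of 2 spread along the x axis with littermate differences of at most 0.72, and the 35 features called between littermates (circled) mostly lie on the same side of 0 on both axes.

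Of the 12 genes lower in the mild line by the largest amounts, 9 had fallen against littermates in that line, and the other 3, Tnnt1, Tpm3 and 2310002L09Rik, are described with the genes that rose in the severe line. Mybphl, which encodes a myosin-binding protein of atrial muscle, had log2 signals of 9.33, 8.83 and 8.91 in the mild hearts and 11.65, 11.98 and 11.83 in the severe hearts. Its littermates ran from 11.72 to 12.06, so the mild arrays stood below all others and the severe arrays overlapped the littermates. It was 6.94-fold lower in the mild line (line difference -2.80, standard error 0.121, adjusted p = 3.12e-09), with a littermate difference of 0.07.

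Hopx encodes a homeodomain protein that does not bind DNA and represses SRF. Its signals were 8.71, 8.49 and 8.44 in the mild hearts, 10.87, 11.19 and 10.93 in the severe line and 11.34 to 11.64 in the littermates. Both lines lay below their littermates, the mild line by far the most, with a change of -3.03 against -0.40 in the severe line. The line difference was -2.45 (5.46-fold, standard error 0.088, adjusted p = 5.95e-10) and the littermate difference 0.18. The difference of the differences was -2.63 (adjusted p = 3.06e-08).

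Myom2, a myomesin of the sarcomere's M band, had signals of 9.36, 9.10 and 9.14 in the mild hearts and 11.04, 11.23 and 11.26 in the severe hearts. The severe arrays fell within the range of the littermates, 10.79 to 11.42, and the mild arrays were below all of them. The line difference was -1.98 (adjusted p = 1.65e-07, littermate difference 0.27).

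Fhl2, a LIM-only protein of the Z disc that binds SRF, was measured by 2 features. The brighter gave 11.48, 11.69 and 11.56 in the mild hearts, 12.39, 12.48 and 12.52 in the severe line and 13.12 to 13.36 in the littermates, which placed the lines in separate steps below the littermates. Its line difference was -0.89 (standard error 0.070, adjusted p = 4.62e-06, littermate difference -0.09). The other feature gave -1.45 (adjusted p = 3.92e-06, littermate difference 0.13), and both passed the test of the difference of the differences, at -0.80 and -1.58.

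Crip2, a cysteine-rich LIM protein, was among the brightest of these genes, with 12.10, 12.08 and 11.98 in the mild line against 13.36, 13.42 and 13.36 in the severe line and 13.64 to 13.79 in the littermates. The 3 groups did not overlap, and the line difference was -1.33 (standard error 0.057, adjusted p = 2.83e-09, littermate difference 0.09). Lrtm1, a membrane protein with leucine-rich repeats, differed by -1.47 (adjusted p = 8.99e-08, littermate difference -0.05), with changes against own littermates of -2.18 in the mild and -0.76 in the severe line. Whrn, the scaffold protein whirlin, differed by -1.45 on one feature (adjusted p = 7.9e-07, littermate difference -0.20), while its dim second feature differed by -0.08 (95% interval of that difference -0.20 to 0.05, adjusted p = 0.632).

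**Figure D2:**
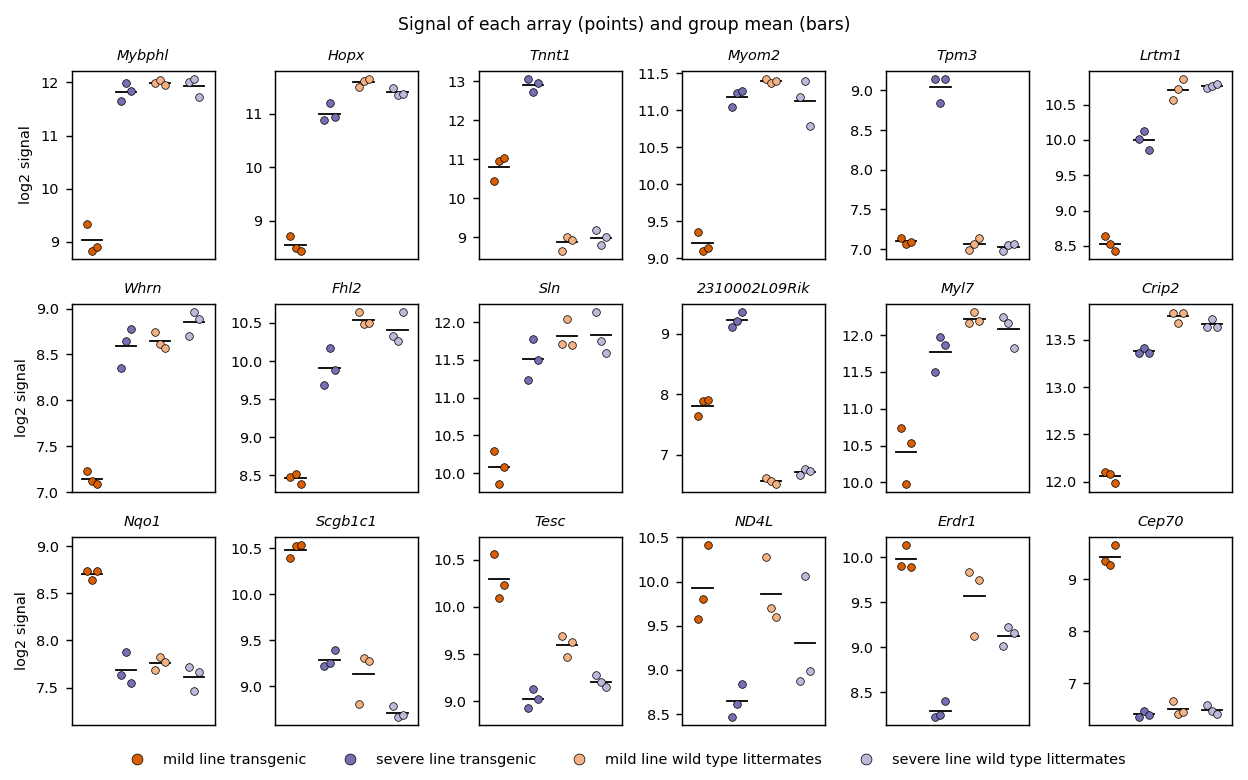
Log2 signal of every array (points) and the group mean (bars) for the 18 genes with the largest line differences, 12 lower and 6 higher in the mild line, each panel with its own y axis. Genes were chosen among those whose mild and severe line arrays do not overlap, so that separation is not a result. For 9 of the 12 lower genes the mild line stands below all littermates, as the severe line also does for Hopx, Fhl2, Crip2 and Lrtm1.

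Atrial muscle has its own light chains, hormones and channels, and 20 such markers were measured. Of these, 10 were called lower in the mild line and none higher, against 1.35% called lower and 1.36% higher of 19013 genes represented by their brightest feature, the background for every list below. All lists were chosen with earlier results of these data known, so their counts are a description and not independent evidence. The median of the atrial list was -0.20 where that of all genes was -0.002, and the littermates' median was 0.08. The mean log2 signal over the list ran from 8.25 to 8.41 on mild arrays, from 8.76 to 8.91 on severe arrays, and from 8.88 to 9.05 in the littermates. Without any 1 array the count of 10 stayed between 8 and 10. Mybphl led the list. Sln, which encodes sarcolipin, an inhibitor of the calcium pump of the sarcoplasmic reticulum, had signals of 10.29, 9.86 and 10.08 in the mild hearts and 11.24, 11.78 and 11.50 in the severe hearts, with 11.59 to 12.13 in the littermates. The mild arrays were lowest, and the severe arrays overlapped the littermates (line difference -1.43, adjusted p = 0.000104, littermate difference -0.01).

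Myl7, the atrial regulatory light chain, gave 10.74, 9.98 and 10.53 in the mild hearts against 11.50, 11.97 and 11.86 in the severe hearts (line difference -1.36, adjusted p = 0.000313, littermate difference 0.14). Hamp, which encodes the iron hormone hepcidin, was more scattered, with 8.54, 7.97 and 8.71 against 9.05, 9.95 and 9.58 (line difference -1.12, standard error 0.202, adjusted p = 0.00791, littermate difference 0.11). The Wnt modulator Dkk3 differed by -0.93 (littermate difference 0.19), the gap junction gene Gja5 by -0.79 (littermate difference -0.35) and the atrial essential light chain Myl4 by -0.65 (littermate difference -0.04). Angpt1, Fgf12 and Kcnj3 were called with differences of -0.43, -0.34 and -0.23 (littermate differences 0.12, -0.02 and -0.05). Kcnj3 lost its call in 8 of the alternatives described in the closing section, with adjusted p up to 0.115, and Myl4 lost it under median scaling (adjusted p = 0.213). Mybphl, Sln, Myl7 and Dkk3 also passed the test of the difference of the differences, and no atrial marker was called between littermates. Under median scaling 2 atrial markers passed the test of the difference of the differences.

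The remaining 10 atrial markers were not called. Nppa, the atrial natriuretic peptide gene, was among the brightest features on every array, with 14.98, 14.92 and 15.02 in the mild hearts and 14.98, 14.92 and 14.87 in the severe hearts (line difference 0.05, 95% interval -0.06 to 0.17, adjusted p = 0.767, littermate difference -0.03). Bmp10 differed by -0.17 at a low signal of 6.48 to 6.82 (littermate difference 0.02). Of 13 ventricular markers, 1 was called, the gap junction gene Gja1 at -0.65 (adjusted p = 0.0101, littermate difference -0.16), which lost the call under median scaling (adjusted p = 0.292).

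A second set of genes had risen in the severe line against its littermates, less or not at all in the mild line. Tnnt1, the slow skeletal troponin T, had signals of 10.43, 10.95 and 11.02 in the mild hearts, 13.05, 12.72 and 12.94 in the severe line and 8.65 to 9.17 in the littermates. Both lines stood above all littermates, the severe line highest. The line difference was -2.10 (4.29-fold, standard error 0.145, adjusted p = 1.03e-06) and the littermate difference -0.12, and the increase against own littermates was 1.94 in the mild and 3.92 in the severe line.

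Tpm3, the slow skeletal α-tropomyosin, rose in the severe line, while the mild arrays lay within the littermates' range or at its edge. Its feature with the largest difference gave 7.14, 7.06 and 7.09 in the mild hearts, 9.14, 8.84 and 9.14 in the severe line and 6.98 to 7.14 in the littermates (line difference -1.94, adjusted p = 1.15e-09, littermate difference 0.03). A second feature differed by -1.48 (adjusted p = 8.21e-10, littermate difference 0.01) and another by -0.29 (adjusted p = 0.0339, littermate difference -0.03), so that the size depended on the probe.

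Acta2, the smooth muscle α-actin, had 11.70, 11.77 and 11.76 in the mild hearts and 12.81, 12.62 and 13.13 in the severe hearts, with 11.97 to 12.10 in the mild line's littermates and 12.44 to 12.48 in those of the severe line. The littermates differed in the same direction by -0.43 without being called (adjusted p = 0.1), beside a line difference of -1.11 (adjusted p = 8.08e-06). The difference of the differences was -0.68 (adjusted p = 0.0473), a call that ended in 15 of 21 alternatives. Sypl2, which encodes a membrane protein of the muscle triad, differed by -1.27 on one feature (adjusted p = 2.4e-06, littermate difference -0.11) and by -0.05 and -0.17, not called, on its 2 dimmer ones. The uncharacterized gene 2310002L09Rik differed by -1.41 on one feature (adjusted p = 5.82e-08, littermate difference -0.15) and by 0.46 in the other direction on a brighter one (adjusted p = 0.0239, littermate difference 0.23).

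The severe line also held more RNA of Kif1a, a kinesin of axonal transport (-1.19, littermate difference -0.12), of the membrane protein gene Ildr2 (-1.10, littermate difference 0.03), of the small GTPase gene Rab15 (-1.04, littermate difference -0.25) and of AW551984 (-1.10, littermate difference -0.03). Each had a change of 1.23 to 1.38 against littermates in the severe line and of 0.16 to 0.53 in the mild line. Parm1 (-1.19, littermate difference 0.23) and the RNA helicase gene Mov10l1 (-1.03, littermate difference -0.26) completed the 21 genes past a fold change of 2, and both had fallen against littermates in the mild line, by 1.16 and 1.24. Below that limit, Ppp1r1a, an inhibitor of protein phosphatase 1, rose in both lines and more in the severe (-0.88, adjusted p = 0.000197, littermate difference 0.07), as did the collagen-modifying enzyme gene P3h2 (-0.90, adjusted p = 1.03e-06, littermate difference -0.09). Gpx3, a secreted glutathione peroxidase, differed by -0.64 (adjusted p = 7.81e-05, littermate difference 0.14).

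Fewer genes were higher in the mild line by a fold change of 2. Cep70, which encodes a centrosomal protein, had 9.35, 9.28 and 9.66 in the mild hearts and 6.35, 6.46 and 6.38 in the severe hearts, with 6.40 to 6.66 in the littermates. The mild arrays stood above all others, by 8.18-fold over the severe line (line difference 3.03, standard error 0.093, adjusted p = 1.28e-10, littermate difference 0.02). The gene's second, dim feature differed by -0.05 (95% interval -0.20 to 0.10), so the difference rested on 1 of its 2 features.

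Erdr1 had 9.90, 10.13 and 9.89 in the mild hearts, 8.23, 8.25 and 8.40 in the severe hearts, 9.83, 9.13 and 9.74 in the mild line's littermates and 9.01, 9.22 and 9.16 in those of the severe line. The severe line was lowest and the mild line highest, with a line difference of 1.68 (3.21-fold, adjusted p = 6.65e-06) and a littermate difference of 0.44 in the same direction. Tesc, which encodes the calcium-binding protein tescalcin, gave 10.56, 10.09 and 10.23 against 8.93, 9.13 and 9.03 (line difference 1.26, adjusted p = 4.62e-06). Its littermates were 9.47 to 9.69 and 9.15 to 9.28 without overlap, a difference of 0.39 that was not called. Scgb1c1, a secretoglobin gene, gave 10.39, 10.52 and 10.53 against 9.22, 9.25 and 9.39 (line difference 1.19, adjusted p = 1.18e-05, littermate difference 0.41).

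Nqo1, a quinone reductase controlled by the oxidative stress factor NRF2, gave 8.74, 8.64 and 8.74 in the mild hearts, 7.63, 7.88 and 7.55 in the severe line and 7.46 to 7.82 in the littermates. All mild arrays stood above the littermates, and the severe arrays overlapped them (line difference 1.02, adjusted p = 7.58e-06, littermate difference 0.14). ND4L, a subunit of respiratory complex I encoded in mitochondrial DNA, was variable, with 9.58, 9.80 and 10.41 in the mild hearts and 8.47, 8.62 and 8.84 in the severe hearts. Its littermates spread from 8.88 to 10.28, and the difference of 1.29 (standard error 0.270, adjusted p = 0.0219, littermate difference 0.55) lost its call without severe line replicate 1 (adjusted p = 0.0999) or 2 (0.0624), and likewise without replicate 2 (0.0523) or 3 (0.113) of the mild line. Bdh1, an enzyme of ketone body metabolism, was higher by 0.93 (adjusted p = 0.000175, littermate difference 0.01), and Myot, the Z disc protein myotilin, by 0.72 (adjusted p = 5.56e-05, littermate difference -0.02). Both had risen in the mild line, by 1.01 and 0.99, and had changes of 0.09 and 0.25, not called, in the severe line.

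**Figure D3:**
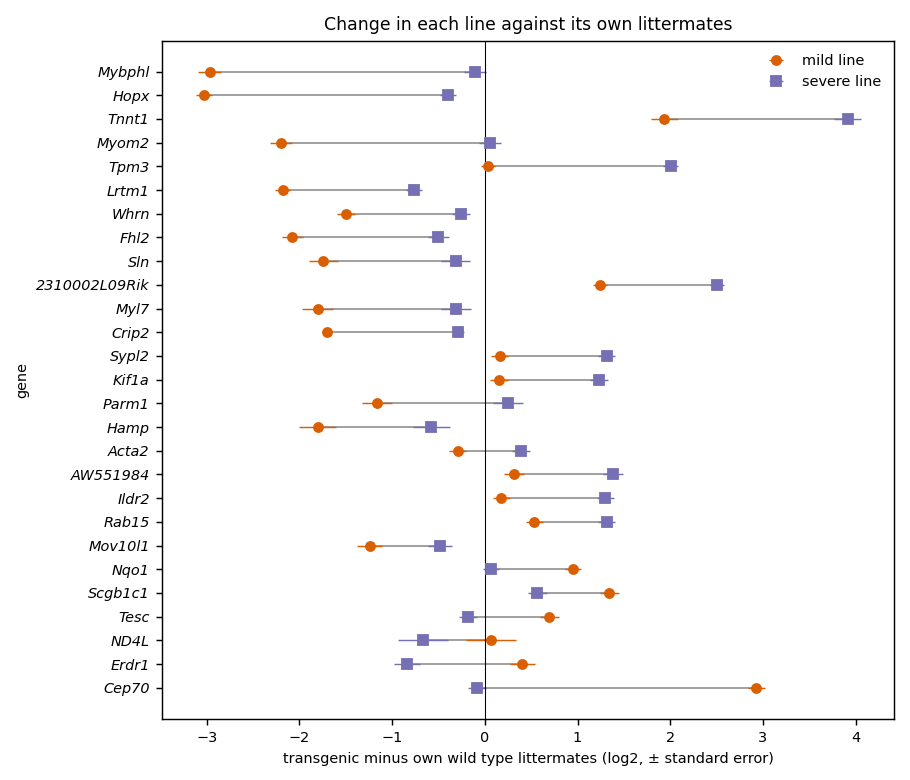
Change of each line against its own wild type littermates (x axis, log2, with standard error) for the 27 named genes past a fold change of 2 between the lines, ordered by line difference. The gene pairs at the top left fell in the mild line, those with squares at the right rose in the severe line, and Cep70 at the bottom rose by 2.93 in the mild line beside -0.08 in the severe line.

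Among the 25 features lower in the mild line past a fold change of 2, 8 were called against own littermates in the mild line alone, 8 in the severe line alone and 9 in both lines with the same sign. Among the 322 features called lower at an adjusted p, the counts were 91, 77 and 38 (2.48% of all features were called in the mild and 2.44% in the severe line against own littermates), and 116 were called in neither line. Among the 332 called higher, they were 62, 30 and 21, with 2 called in opposite directions and 217 in neither line. The littermates had a difference of the same sign for 275 of the 332 higher features (median 0.15 beside a line difference of 0.41) and for 222 of the 322 lower ones (median -0.06 beside -0.41). Comparisons of each line with its littermates share their transgenic arrays with the comparison between lines.

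Hopx and Fhl2 are repressors of SRF, and their network was read gene by gene. Hopx and Fhl2 were lower in the mild line, as above, while Srf itself gave 9.62, 9.41 and 9.19 against 9.40, 9.22 and 9.43 (line difference 0.06, 95% interval -0.15 to 0.26, littermate difference -0.11). Of 12 genes of the network that the study described in these samples, 4 were called lower in the mild line and 1 higher, beside 1.35% and 1.36% of all genes, and the median was -0.02 beside 0.15 in the littermates. The list was chosen by the study on these samples and is not independent evidence. The 4 lower genes were Hopx, Fhl2, the muscle LIM protein gene Fhl1 (-0.52, adjusted p = 0.0153, littermate difference -0.18) and the tropomyosin gene Tpm2 (-0.59, adjusted p = 0.00702, littermate difference 0.11). Under median scaling the list held 2 lower and 2 higher calls. Fhl1 lost its call without replicate 1 of the severe line (adjusted p = 0.0779) and without replicate 3 of the mild line (0.0788).

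Egr1, an immediate early transcription factor and SRF target, had 11.65, 11.51 and 11.27 in the mild hearts and 10.60, 10.37 and 11.18 in the severe hearts. The lowest mild array lay just above the highest severe array, and the difference of 0.76 (standard error 0.185, adjusted p = 0.0466, littermate difference 0.32) was lost in 14 of 23 alternatives, with adjusted p up to 0.173. Acta1, the skeletal α-actin, gave 14.75, 14.66 and 14.53 against 14.51, 14.31 and 14.31, which overlapped by no array, and a difference of 0.27 that was not called (95% interval 0.07 to 0.47, adjusted p = 0.19, littermate difference 0.12). Nppb, the B-type natriuretic peptide gene, gave 13.77, 14.07 and 14.13 against 13.13, 13.02 and 14.22. Severe line replicate 3 was the highest of all, and the difference of 0.53 was not called (95% interval 0.00 to 1.07, adjusted p = 0.377, littermate difference 0.39), though it was 0.91 and called without that array. Fos, another immediate early gene, gave 7.50, 7.30 and 8.40 in the severe hearts and 8.14 to 8.75 in the mild hearts (0.72, adjusted p = 0.15, and 1.06 and called without severe line replicate 3, littermate difference 0.27). Rcan1, a calcineurin inhibitor, rose in both lines and differed between them by -0.10 on its brighter feature (95% interval -0.39 to 0.19, littermate difference -0.03). Casq1, skeletal calsequestrin, differed by 0.50 without being called (adjusted p = 0.225, littermate difference 0.30). Ccn2, a matricellular protein gene, differed by -0.22 between the transgenic lines (adjusted p = 0.575) and by 0.73, not called, between littermates.

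SRF binds a DNA motif called the CArG box, and promoters are shown because Hopx and Fhl2 belong to its network. Each window runs from 250 bases before to 50 bases after a transcription start in RefSeq (GRCm38.p6), 19 of the 21 named genes lower past a fold change of 2 had 29 such windows, and both strands were searched for the box without mismatch. The box was found in 4 windows (13.8%), of Fhl2, Hopx and Myl7, beside 535 of all 32851 windows (1.63%). It was found in 11 of 277 windows (3.97%) of genes called lower in the mild line and in 5 of 271 (1.85%) of those called higher. The MEF2 box and TATAAA were searched as well. Of the same 29 windows, 0 held the MEF2 box (0.557% of all windows) and 3 held TATAAA (10.3%, beside 13.6%). The MEF2 box was in 0.722% of windows of genes called lower and in 1.85% of those called higher. The 4 windows with a CArG box come from 3 genes, and a match describes the letters alone. The windows below are written 5′ to 3′ with the CArG box in capitals, and all 4 lie on the minus strand. The first Fhl2 window is chr1:43196712-43197011, with the box 96 to 87 bases before the start, and the second is chr1:43163912-43164211, with the box 31 to 22 bases before it. The Hopx window is chr5:77115074-77115373, with the box at 83 to 74 bases, and the Myl7 window chr11:5898733-5899032, with the box at 61 to 52 bases.
Fhl2, first start: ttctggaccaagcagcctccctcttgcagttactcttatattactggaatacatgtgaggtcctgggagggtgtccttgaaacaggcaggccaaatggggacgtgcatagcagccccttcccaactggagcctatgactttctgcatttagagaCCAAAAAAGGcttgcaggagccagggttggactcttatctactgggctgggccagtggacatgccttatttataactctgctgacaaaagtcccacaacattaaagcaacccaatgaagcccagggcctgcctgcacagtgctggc
Fhl2, second start: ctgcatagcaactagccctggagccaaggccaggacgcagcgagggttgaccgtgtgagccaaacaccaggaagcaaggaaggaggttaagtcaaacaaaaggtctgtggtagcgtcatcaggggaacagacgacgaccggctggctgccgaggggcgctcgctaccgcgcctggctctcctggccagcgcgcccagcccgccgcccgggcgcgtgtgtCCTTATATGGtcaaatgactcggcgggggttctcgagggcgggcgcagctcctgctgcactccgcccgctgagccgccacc
Hopx: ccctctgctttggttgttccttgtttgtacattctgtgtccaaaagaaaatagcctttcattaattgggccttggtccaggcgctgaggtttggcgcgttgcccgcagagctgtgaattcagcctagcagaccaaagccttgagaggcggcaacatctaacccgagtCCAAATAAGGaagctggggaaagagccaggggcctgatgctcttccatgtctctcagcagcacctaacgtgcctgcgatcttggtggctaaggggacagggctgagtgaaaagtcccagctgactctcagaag
Myl7: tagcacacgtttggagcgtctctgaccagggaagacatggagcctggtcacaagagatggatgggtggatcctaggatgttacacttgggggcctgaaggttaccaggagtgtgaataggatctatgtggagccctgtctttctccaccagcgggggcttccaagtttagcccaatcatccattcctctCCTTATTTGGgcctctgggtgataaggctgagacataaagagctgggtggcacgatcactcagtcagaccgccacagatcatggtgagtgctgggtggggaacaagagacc
In the array data Hopx, Fhl2 and Myl7 were lower in the mild line than in the severe line by the values given above, and of the 2 starts of Fhl2 the arrays do not say which was in use.

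The sarcoplasmic reticulum stores and releases the calcium that drives each beat. Of 38 of its genes and other calcium handling genes, 7 were called lower (18.4%, beside 1.35% of all genes) and 2 higher (5.26%, beside 1.36%), with a median of -0.08 beside 0.002 in the littermates. Ryr2, the calcium release channel, gave 9.46, 9.19 and 9.18 in the mild hearts, 9.79, 9.95 and 9.89 in the severe line and 10.14 to 10.49 in the littermates, so that the groups formed descending steps. The line difference was -0.60 (adjusted p = 0.000392, littermate difference 0.27), and its dim second feature differed by 0.15 without a call. Atp2a2, the calcium pump, was very bright, with 13.94, 14.03 and 14.07 against 14.44, 14.57 and 14.59 (line difference -0.52, adjusted p = 0.000313, littermate difference 0.01). Pln, which encodes the pump inhibitor phospholamban, had a change of -1.17 against littermates in the mild line, and the line difference of -0.39 was not called (95% interval -0.67 to -0.12, adjusted p = 0.151, littermate difference 0.29). Slc8a1, the sodium-calcium exchanger, differed by -0.40 in transgenic hearts and by -0.44 in littermates. S100a1, a calcium sensor, was higher in the mild line by 0.48 (littermate difference -0.02), as was Jph1, a junctophilin, by 0.40 (littermate difference 0.36). Under median scaling 4 genes of the list were called lower and 2 higher.

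Sarcomere genes were called in both directions. Of 16 thick filament and M band genes, 4 were called lower (Mybphl, Myom2, Myl7 and Myl4) and 1 higher, Trim54, a muscle ring finger protein gene (0.81, adjusted p = 0.000557, littermate difference 0.49). Of 25 Z disc genes, 6 were called higher and 2, Fhl2 and Fhl1, lower. The higher ones included Myot, the chaperone gene Cryab (0.48, littermate difference 0.04) and Synpo2l (0.55, littermate difference 0.16). Cryab lost its call without severe line replicate 1 or 3 or mild line replicate 1 or 2, with adjusted p from 0.0661 to 0.121, and Synpo2l in 10 alternatives, with adjusted p up to 0.176. Under median scaling 2 thick filament and M band genes were called higher and 3 lower, and 10 Z disc genes higher and 1 lower. Of 23 skeletal and fetal isoform genes, 3 were called lower (Tnnt1, Tpm3 and Acta2) and 3 higher, among them Myl1, a skeletal essential light chain, with 0.62 and 0.88 on its 2 features (littermate differences 0.17 and 0.23). Xirp2, an actin-binding protein of the intercalated disc, was higher by 0.61 (adjusted p = 0.00765, littermate difference 0.20).

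**Figure D4:**
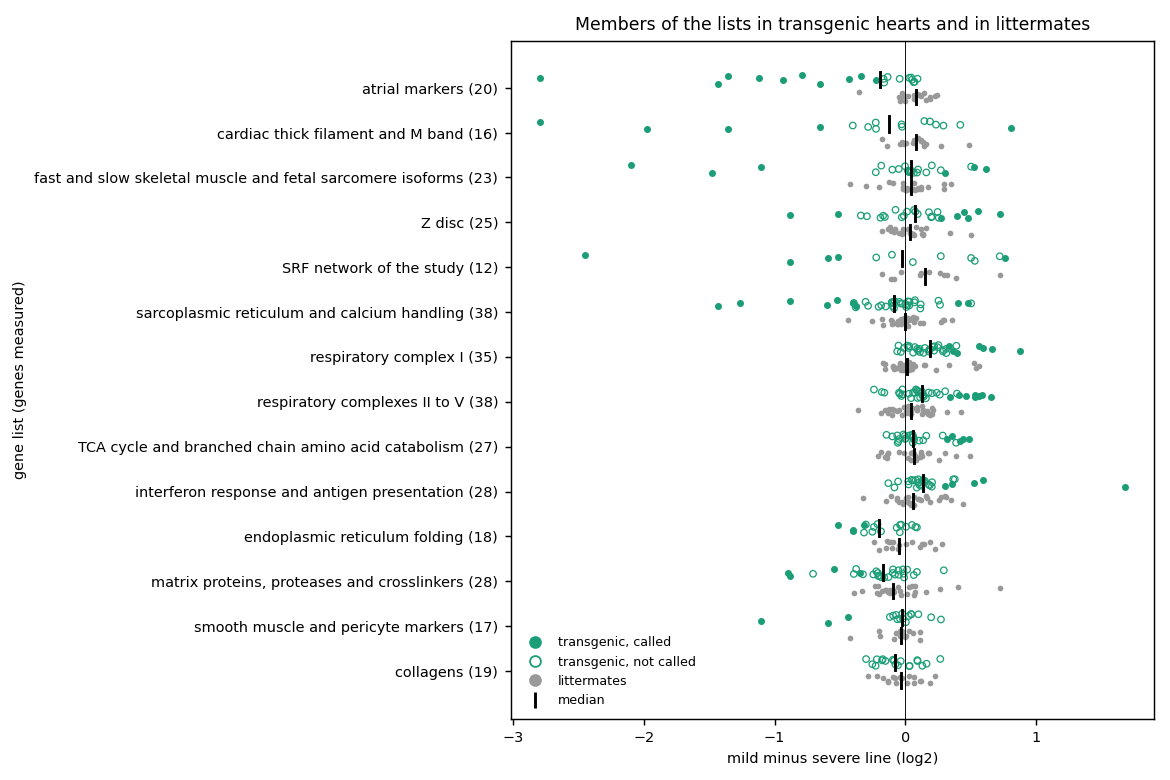
Members of 14 gene lists by their difference between the transgenic lines (upper row of each list, filled where called) and between the littermates (lower row, grey), mild minus severe on the log2 scale, with medians as bars. Atrial markers extend to the left in transgenic hearts alone, and respiratory genes lie mostly right of 0, with medians of 0.19 and 0.13 beside 0.02 and 0.04 in littermates.

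Respiratory chain genes of the mitochondria were called in 1 direction only. Of 35 genes of respiratory complex I, 7 were called higher and none lower (20.0%, beside 1.36% of all genes), with a median of 0.19 in transgenic hearts and 0.02 in littermates. Of 38 genes of complexes II to V, 8 were called higher and none lower, with medians of 0.13 and 0.04. Within these lists, which hold nuclear genes and not ND4L, the largest difference was that of the complex I subunit gene Ndufb9, with 10.27, 10.34 and 10.40 in the mild hearts, 9.05, 9.69 and 9.62 in the severe line, 10.21 to 10.39 in the mild line's littermates and 9.56 to 9.98 in those of the severe line. The line difference of 0.88 (adjusted p = 0.00281) therefore had a littermate difference of 0.54 beside it. Ndufb2 (0.67 and 0.57) and Ndufb10 (0.56 and 0.53) had the first value in transgenic hearts and the second in littermates. Cox7a2, a cytochrome oxidase subunit gene (0.66 and 0.17), Atp5a1 of the ATP synthase (0.56 and 0.17) and Ndufb5 (0.60 and 0.33) had the larger value in transgenic hearts, but no gene of either list passed the test of the difference of the differences. Under median scaling 1 gene of complex I and 2 of complexes II to V passed it.

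Against their own littermates, 6 genes of complex I had fallen in the severe line and none in the mild line, beside 302 and 346 of all 19013 genes. The counts rested on the scaling and on single arrays. Under median scaling 27 of 35 and 26 of 38 genes were called higher, and without 1 array the counts ran from 5 to 10 for complex I and from 3 to 10 for complexes II to V, the latter being 3 without replicate 1 of the severe line or replicates 1 or 3 of the mild line and 5 without replicate 2 of the severe line. Of 27 genes of the TCA cycle and branched chain amino acid breakdown, 5 were called higher, such as the malate dehydrogenase genes Mdh1 (0.49, littermate difference 0.39) and Mdh2 (0.36, littermate difference 0.17). Their median was 0.06 beside 0.07 in the littermates. Of 33 genes of fatty acid uptake and oxidation, 2 were called lower, Acaa2 (-0.49, littermate difference -0.0038) and Decr1 (-0.38, littermate difference 0.04), and 1 higher, Mlycd (0.48, littermate difference 0.28), although 16 had fallen against littermates in the mild line (1.35% of all features) and 11 in the severe line (1.13%). Under median scaling 3 genes of this list were called higher and none lower. Eno2, the neuronal enolase, was lower (-0.53, littermate difference -0.02), and the glycolytic genes Pgam2 (0.41, littermate difference -0.05) and Gapdh (0.32, littermate difference -0.14) were higher. Ckb, brain creatine kinase, was lower (-0.64, adjusted p = 0.000397, littermate difference -0.23).

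Genes of protein folding and of the matrix were also called lower in the mild line. Of 18 genes of folding in the endoplasmic reticulum, 4 were called lower and none higher, with a median of -0.20 beside -0.05 in the littermates. They were Sdf2l1 (-0.51, adjusted p = 0.000311, littermate difference -0.11), the transcription factor gene Xbp1 (-0.40, littermate difference 0.12), the calcium-binding chaperone gene Calr (-0.40, littermate difference -0.14) and Pdia6 (-0.32, littermate difference -0.12). This count was 1 under median scaling, 2 with the wild type arrays pooled, 1 without severe line replicate 1 or mild line replicates 1 or 3, and 2 without severe line replicate 2 or mild line replicate 2. Of 28 matrix genes, 4 were called lower (14.3%, beside 1.35% of all genes), with a median of -0.17 beside -0.09 in the littermates. They were P3h2, the protease inhibitor gene Timp1, the crosslinking enzyme gene Lox (-0.54, littermate difference -0.21) and the collagen chaperone gene Serpinh1 (-0.35, littermate difference -0.15). Under median scaling 1 matrix gene was called lower and the median was -0.03. Of 19 collagens none was called in either direction. Timp1 varied within both lines, with 8.80, 8.13 and 8.03 against 9.59, 9.26 and 8.76, so that the highest mild array lay above the lowest severe array (-0.88, standard error 0.200, adjusted p = 0.0331, littermate difference -0.39), and lost its call in 8 alternatives, with adjusted p up to 0.154.

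Of 28 interferon response and antigen presentation genes, 5 were called higher in the mild line and none lower, with a median of 0.13 beside 0.06. The list as written holds Erdr1, which was among them, and whether that gene belongs to this class was not tested. The class II genes Cd74 (0.59, littermate difference 0.27) and H2-Ab1 (0.53, littermate difference 0.35) had differences of the same sign in the littermates. In the whole list 1 gene passed the test of the difference of the differences, and it was Erdr1. Rbfox1, a splicing regulator, came close to the 2-fold limit (7.62, 7.60 and 7.62 against 8.67, 8.49 and 8.60, line difference -0.97, adjusted p = 4.71e-06, littermate difference 0.22). Of 9 CELF and MBNL genes none was called, and of 29 cell cycle and 32 ribosomal protein genes none was called. Corin, the protease that processes natriuretic peptides, differed by -0.80 (adjusted p = 0.000699, littermate difference 0.16) and the angiotensin receptor gene Agtr1a by -0.77 (adjusted p = 0.000392, littermate difference -0.17).

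Among markers of other cell types, smooth muscle and pericyte genes held the most calls. Of 17 such markers 3 were called lower (17.6%, beside 1.35% of all genes), namely Acta2, Tpm2 and the actin-binding protein gene Tagln (-0.44, littermate difference -0.03), and the median of the list was -0.02. The mean log2 signal over the list ran from 8.49 to 8.56 on mild arrays and from 8.59 to 8.66 on severe arrays, without overlap, and from 8.40 to 8.50 in the littermates. These means include the 3 called genes, and 7 of the 17 markers had a positive line difference. No marker was called among 17 endothelial, 11 epicardial, 12 adipose, 9 lung, 8 red blood cell, 9 lymphoid and 11 thymus and pancreas genes. Of 15 fibroblast markers 1 was called lower (Lox), of 16 macrophage markers 1 (Lgmn, -0.60, littermate difference -0.15) and of 9 nerve markers 1 (Dbh, -0.59, littermate difference 0.17). Under median scaling 2 smooth muscle and pericyte markers were called lower, no fibroblast marker was called, and 3 endothelial and 2 macrophage markers were called higher. The mean log2 signal over the endothelial list ran from 9.20 to 9.26 on mild and from 9.16 to 9.21 on severe arrays, and over the red blood cell list from 9.08 to 9.48 and from 9.04 to 9.42. The part of these cell types in the results above was not tested.

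A set of genes differed between the lines by about as much in wild type as in transgenic hearts. Of the 35 features called between littermates, 33 had the same sign between the transgenic lines and 12 were called there too, all 12 in the same direction. Tnni3, cardiac troponin I, had 11.60, 11.62 and 11.53 in the mild hearts and 10.94, 11.17 and 11.09 in the severe hearts. Its littermates gave 11.61, 11.60 and 11.62 against 11.27, 10.83 and 10.99, so that both families of arrays separated in the same way. The line difference was 0.52 (adjusted p = 0.00609) and the littermate difference 0.58 (adjusted p = 0.026). The translation factor gene Eif3k (0.41 and 0.47), the autophagy gene Map1lc3b (0.64 and 0.54), Pramel4 (0.41 and 0.56), one of the features of the lysozyme gene Lyz2 (0.46 and 0.47) and the tubulin gene Tubb4b (-0.27 and -0.46) did likewise, each pair giving the transgenic and then the littermate difference. The other features of Eif3k and Lyz2 differed between the transgenic lines by -0.03 and 0.05 without a call. Dusp1 (0.76 and 0.63), Ifi27l2a (0.79 and 0.77) and the growth factor gene Igf2 (-0.56 and -0.45) were called between transgenic lines alone, with littermate differences of nearly the same size.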

How the data were processed

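Total RNA of 12 hearts was measured on MouseWG-6 v2.0 BeadChips (Illumina). In the deposited value table, which was analysed here, the authors had corrected the background, quantile normalized the arrays and put the values on the log2 scale (GenomeStudio and limma in the submitters' processing notes, versions not given). The deposited raw files hold 1 intensity per probe without detection p-values and were used for alternatives only. Ranks within each array agreed in both kinds of file. The 45281 probe IDs were merged to 30854 features where all values were identical, and 22203 features carried 1 of 19013 symbols. How several IDs came to share values is not given in the sources used here.

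Means of the 4 groups were fitted over 12 arrays with limma 3.58.1 in R 4.3.3, with variances moderated by empirical Bayes, and p-values were adjusted by Benjamini-Hochberg over all features of each contrast. A feature was called at an adjusted p under 0.05. The limit of a fold change of 2 asked for the same adjusted p or for an unadjusted p below 0.001. Contrasts were mild minus severe transgenic, mild minus severe littermates, and the difference of the differences. Lists (48) were described by each gene's brightest feature. Precision is limited by 3 arrays a group. The fit was tested on simulated data.

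Named were up to 12 largest differences each way past the fold limit, among features whose mild and severe line arrays did not overlap. Also named were up to 4 called members per list, genes the paper names and up to 6 genes called in both contrasts. Markers of other cell types differing by over 0.5 were added, as were 5 genes each way that lost their call in the difference of the differences. Other genes named complete a count and were chosen after their values were seen. The members and lists were chosen with earlier results of these data known. Alternatives were raw intensities with normexp (offset 50), without background correction or with median scaling, a signal filter, array weights, trend and robust variances together, a replicate block, unmerged probe IDs, averaged features, transgenic arrays alone, pooled wild type arrays and leaving out each array.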

Additional observations from a re-analysis of the deposited data

Results flagged for a closer look

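The change of each line against its own littermates differed between the lines for 85 features by limma's test of the difference of the differences at an adjusted p under 0.05. Each value below is the change in the mild line minus that in the severe line on the log2 scale. It was negative for Mybphl (-2.86), Hopx (-2.63), Myom2 (-2.25), Tnnt1 (-1.98), Tpm3 (-1.97 and -1.49), Fhl2 (-1.58 and -0.80), Myl7 (-1.50), Sln (-1.43) and Crip2 (-1.42). Those genes either fell further in the mild line or rose further in the severe line. It was also negative for Lrtm1 (-1.42), 2310002L09Rik (-1.26), Whrn (-1.25), Rbfox1 (-1.19), Sypl2 (-1.16), Dkk3 (-1.12), Corin (-0.96) and Ppp1r1a (-0.95). Among genes named by the rules of the processing section, the remaining ones with a negative value were Ryr2 (-0.87), Ttll1 (-0.82), Lamb3 (-0.81), P3h2 (-0.80), Gpx3 (-0.78) and Acta2 (-0.68). Genes named only to complete a count are not listed here, and some of them, such as Parm1 and Kif1a, also passed the test. The value was positive for Pgam2 (0.47), Myot (0.74), Scgb1c1 (0.78), Nqo1 (0.88), Tesc (0.88), Bdh1 (0.92), Erdr1 (1.24) and Cep70 (3.01). The call ended in 15 of 21 alternatives for Pgam2 (adjusted p up to 0.223) and for Acta2 (0.309), in 13 for Ttll1 (0.163), in 9 for Scgb1c1 (0.13) and in 7 for Lamb3 (0.0957). Groups of 3 arrays were not tested for a single array far from the others.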

How the results depend on the processing

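Leaving out each array in turn gave 319 to 768 calls between the transgenic lines (654 with all arrays), 30 to 32 past a fold change of 2, 0 to 43 between littermates, 54 to 90 for the difference of the differences and 30 to 35 for the latter by the rule of a fold change of 2, which also takes an unadjusted p below 0.001. The lists gave 8 to 10 lower atrial markers, 5 to 10 higher genes of complex I, 3 to 10 of complexes II to V and 1 to 4 lower folding genes. Median scaling gave 1023 calls between transgenic lines, 13 between littermates, 27 and 26 higher respiratory genes and 1 lower folding gene, and it moved the median of all features by 0.021, with the cause not tested. Counting every probe ID gave 1119 calls, which counts merged features more than once. Between littermates the count was 15 with trend and robust variances and 14 with averaged features, which also gave 20 differences of the differences past a fold change of 2. Pooling the wild type arrays left 2 lower folding genes. Replicate numbers were not treated as pairs. Deviations from the group means of same-numbered arrays correlated by 0.052, 0.037 and 0.024 between the transgenic lines. Between transgenic and littermate arrays they correlated by 0.073, -0.01 and -0.042 in the mild line. In the severe line the values were -0.115, -0.274 and 0.006. With 3 arrays a group such values cannot show whether arrays were paired. With a replicate block the calls were 487 between transgenic lines, 32 past a fold change of 2, 8 between littermates and 74 for the difference of the differences. Of 104 called differences between the lines that are named by the rules of the processing section, 48 kept their call under every alternative, and 260 of 2392 recomputed values lost it with the direction kept. Calls of Acaa2, Atp5a1, Bckdhb, Calr, Cd74, Cryab, Dbh, Decr1, Dusp1, Egr1, Fhl1, Gadd45a, Gapdh, Gbp3, Gstm1, Hsph1, Idh2, Ifi27l2a, Itga3, Kcnj3, Lama5, Lgmn, Mdh1, Mdh2, Mlycd, Myl1, ND4L, Pdia6, Pramel4, Rbm24, Scx, Sdhd, Serpinh1, Synpo2l, Timp1, Tubb4b and Xbp1 ended without at least 1 array. Of the 33 differences of the differences listed above, 21 kept their call under every alternative. With 3 arrays a group and no detection p-values, small differences of dim features are not resolved.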

Other observations

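Ins2, which encodes insulin and was chosen here after its values were seen, had a log2 signal of 11.38, 7.34 and 8.18 in the littermates of the severe line and of 6.34 to 7.23 in the other 9 hearts. The littermate difference of -2.43 was not called (limma, adjusted p = 0.188), and the transgenic lines differed by -0.30.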
